A study of Mus musculus with 8 samples.

Results

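NanogBiD and native Nanog were compared by the regions they occupied in MEFs (mouse embryonic fibroblasts) sampled at day 3 of reprogramming. Peaks of the NanogBiD library and of the native Nanog library were merged wherever they overlapped by at least 1 bp, which gave 95389 regions on the placed chromosomes, of 306426 regions in the union of all 8 libraries of the series. A region was called shared when it held peaks of both forms, and NanogBiD only or native only otherwise. There were 52683 shared regions (55.2% of the 95389), 22677 NanogBiD-only regions (23.8%) and 20029 native-only regions (21.0%).

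The assay was CUT&Tag, which tethers Tn5 transposase to an antibody on chromatin and sequences the DNA that it cuts nearby. The antibody recognised Flag, the tag on the delivered factor. Each library was made from 100000 cells per the labels, while the methods text gives a lower number. The other 6 libraries are of Oct4, Sox2 and Nr5a2, each in its native form and fused to BiD.

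The cells were OG2 MEFs per the study's methods, from E13.5 embryos of OG2 males and 129 females that carry an Oct4-GFP reporter, and the factors were delivered by pMXs retroviruses. BiD is the part of SS18 that binds BRG1, and in the fusion it lies at the N-terminus of Nanog behind a short linker. The titles name only Nanog and NanogBiD. The paper's text uses both names for combinations with native Oct4, and whether Oct4 was delivered in these libraries is not given. A mixed, infected population was profiled in both groups, and no expression was measured in these libraries, so the fibroblast label could not be checked against marker RNA. No control library was used here. Each form has 1 library, so no difference below was tested between cultures, and the intervals given are exact 95% binomial intervals that cover counting error over regions only.

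Nanog is a homeodomain protein that binds DNA at a short AT-rich consensus and works with Oct4, Sox2 and Esrrb in pluripotent cells. SS18 is a subunit of the BAF complex, the mammalian SWI/SNF remodeller that moves and evicts nucleosomes with the ATPase BRG1. In fibroblasts, open enhancers carry many sites of AP-1, the dimer of FOS and JUN proteins, together with sites of TEAD and RUNX factors.

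Sequence at the summit differed between the classes, as given below over all summits. The few regions printed here were picked for holding a motif, so they illustrate the motifs and do not show the difference. A summit is the base with the most tags in a peak. The first set is of regions that were NanogBiD only, or far higher in rank in NanogBiD, and that held the NANOG consensus GCCATTA or its core CCATTA on either strand, which are in capitals (TAATGGC and TAATGG on the other strand). The second set is of regions that were native only, or far higher in rank in native Nanog, and that held the AP-1 consensus TGANTCA, in capitals. All are mm10 sequence of the plus strand, 50 bp to either side of the summit. Among the 10 highest-scoring NanogBiD-only regions, 2 held the core, and 1 of them the whole consensus. Among the 10 highest-scoring native-only regions, 2 held the AP-1 consensus and 0 held the core. Among the shared regions of greatest rank shift, the core was on both sides. Beside the region named for Mrps5, it was in those named for Uxs1 (17.3 kb from the start site) and Dnajb9 (1357 kb) on the NanogBiD side. On the native side it was in those named for Nr2f1 (403 kb) and Edil3 (255 kb). Regions carry the name of the nearest protein-coding gene or of a listed gene, which can lie far away, such as Trps1 at 414 kb and Car10 at 558 kb. The Prdm14 region was chosen after its values were seen.
Rpn2, 509 bp from a start site, NanogBiD only, chr2:157320242-157320342: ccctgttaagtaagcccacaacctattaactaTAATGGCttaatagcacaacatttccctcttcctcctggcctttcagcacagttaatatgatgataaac
Elavl4, intergenic, NanogBiD only, chr4:110125530-110125630: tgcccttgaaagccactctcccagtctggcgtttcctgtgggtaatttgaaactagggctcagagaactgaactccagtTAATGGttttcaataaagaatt
Prdm14, intergenic, NanogBiD only, chr1:13134509-13134609: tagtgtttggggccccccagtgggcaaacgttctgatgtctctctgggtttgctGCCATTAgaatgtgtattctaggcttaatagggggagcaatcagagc
Mrps5, intergenic, shared, chr2:127622152-127622252: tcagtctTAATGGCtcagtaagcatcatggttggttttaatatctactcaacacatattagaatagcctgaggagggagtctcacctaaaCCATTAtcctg
Car10, intergenic, native only, chr11:92539771-92539871: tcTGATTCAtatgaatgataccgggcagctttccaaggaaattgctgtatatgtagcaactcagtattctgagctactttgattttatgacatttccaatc
Trps1, in an intron of the lincRNA gene Gm19303, native only, chr15:51304044-51304144: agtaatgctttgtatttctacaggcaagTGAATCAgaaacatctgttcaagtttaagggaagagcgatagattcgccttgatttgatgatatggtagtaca
Slc16a7, intron, shared, chr10:125256085-125256185: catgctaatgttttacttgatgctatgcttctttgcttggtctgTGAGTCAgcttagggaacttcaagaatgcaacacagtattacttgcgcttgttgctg

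The sites of the tagged gene itself were examined first. Summits of both forms lay on exons of Nanog (ENSMUSG00000012396.12, chromosome 6), in regions at 122711275 to 122712051 and at 122712911 to 122713674. Their heights were 25 tags in NanogBiD and 37 tags in native Nanog in the first region, and 47 and 57 tags in the second. The delivered vectors carry Nanog coding sequence, so these tags cannot be told apart from tags of the vector. Both regions are shared and enter no single-form count.

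Strength was examined next, since regions of one form alone can be sites near the limit of calling. The deposited score of a peak is 10 times the negative log10 of the caller's p-value, and the height is the number of tags at the summit. NanogBiD-only peaks had a median score of 82.17 and a median height of 15 tags, against 182.01 and 23 tags for NanogBiD peaks in shared regions. Native-only peaks had a median score of 77.16 and a median height of 12 tags, against 160.41 and 19 tags for native peaks in shared regions. In both lists the single-form class was therefore the weaker one, with a median score percentile of 25.8 in NanogBiD and 25.3 in native Nanog.

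The share of peaks with no partner in the other form was lower in each of 10 successive score bins of equal size. It was 63.2% (62.1 to 64.3) in the lowest bin of the NanogBiD list and 1.76% (1.47 to 2.08) in the highest. In native Nanog it was 59.5% (58.3 to 60.6) in the lowest bin and 0.885% (0.684 to 1.13) in the highest. Of the NanogBiD-only regions, 884 (3.90%) were above the 75th score percentile of their list, and of the native-only regions 654 (3.27%). Heights are not scaled to depth. A height of at least 20 tags was reached by 24.6% of NanogBiD-only peaks and 9.30% of native-only peaks, while in shared regions the median ratio of the NanogBiD height to the native height was 1.19. The study's reporting summary lists more read pairs for NanogBiD than for native Nanog, and the part of depth in these heights was not tested.

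**Figure D1:**
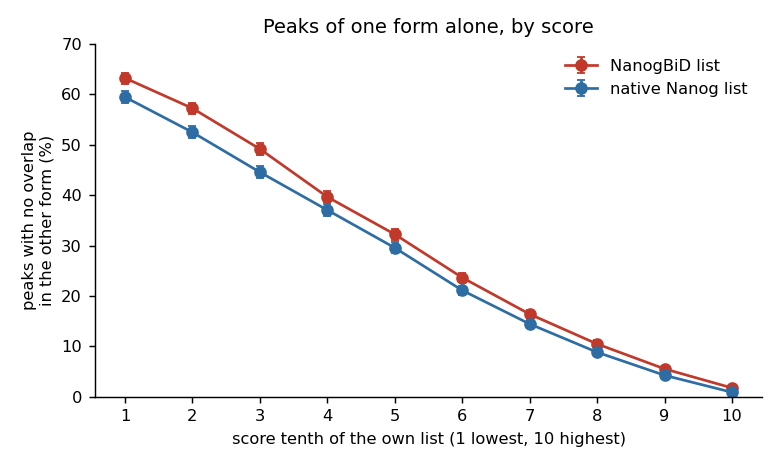
Share of peaks (%) that overlapped no peak of the other form, by score bin of the own list (10 bins of equal size, 1 lowest), for the NanogBiD list (red) and the native Nanog list (blue), 1 library each; bars are exact 95% intervals. Both curves go down at every step, from 63.2% to 1.76% in NanogBiD and from 59.5% to 0.885% in native Nanog.

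Single-form regions were also narrower than shared ones, and NanogBiD-only regions lay closer to shared ones than native-only regions did. The distances of random positions were not computed, so closeness beyond them is not read. The median width was 1140 bp for shared regions, 716 bp for NanogBiD-only regions and 636 bp for native-only regions. Among NanogBiD-only regions, 47.9% (47.3 to 48.6) lay within 10 kb of the summit of a shared region, with a median distance of 10566 bp. Among native-only regions the share was 39.0% (38.3 to 39.7) and the median distance 13987 bp.

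Position along genes separated the single-form classes. The median distance from summit to the nearest annotated start site was 9771 bp for shared regions, 10595 bp for NanogBiD-only regions and 18168 bp for native-only regions. Promoters, taken as 2 kb to either side of a start site, held 25.6% (25.2 to 26.0) of shared regions, 17.3% (16.8 to 17.8) of NanogBiD-only regions and 10.5% (10.1 to 10.9) of native-only regions. NanogBiD-only regions thus lay between the other classes. The gap between shared and NanogBiD-only regions was at the start sites themselves, since 17.3% of shared regions but 7.62% of NanogBiD-only regions had a summit within 500 bp, while from 500 bp to 2 kb the shares were 8.30% and 9.66%. Native-only regions lay more often between genes, where 45.8% of their summits fell, against 35.1% for NanogBiD only and 34.2% for shared. Summits over 100 kb from any start site made up 8.62% of native-only regions and 4.08% of NanogBiD-only regions.

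The promoter share changed with strength in opposite directions. The 4 score bins were set by the percentile in the own list, and for shared regions by the percentile in the NanogBiD list. Among shared regions the promoter share went from 18.4% in the lowest bin to 29.1% in the highest. Among NanogBiD-only regions it went from 18.4% (17.7 to 19.1) to 11.7% (9.61 to 14.0), and among native-only regions from 12.0% (11.4 to 12.7) to 5.66% (4.01 to 7.71). The difference between the single-form classes had the same direction in each bin. Over all regions it was 6.81 percentage points.

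Gene-dense and gene-poor stretches were occupied unequally. Native-only regions had on average 1.63 protein-coding genes with a start site within 100 kb, against 2.57 for NanogBiD-only and 2.55 for shared regions. No such gene was present for 34.9% of native-only regions, for 18.2% of NanogBiD-only regions and for 20.6% of shared regions. Of the single-form regions with no gene within 100 kb, 37.2% (36.3 to 38.1) were NanogBiD only. This share was 53.6% with 1 or 2 genes, 64.6% with 3 to 5 genes and 69.95% (68.5 to 71.4) with over 5 genes. Across the autosomes it ranged from 48.9% on chromosome 12 to 58.8% on chromosome 11. The median GC content around the summit was 45.8% for shared regions, 44.3% for NanogBiD-only regions and 43.3% for native-only regions. What part base composition or depth has in the difference was not tested.

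**Figure D2:**
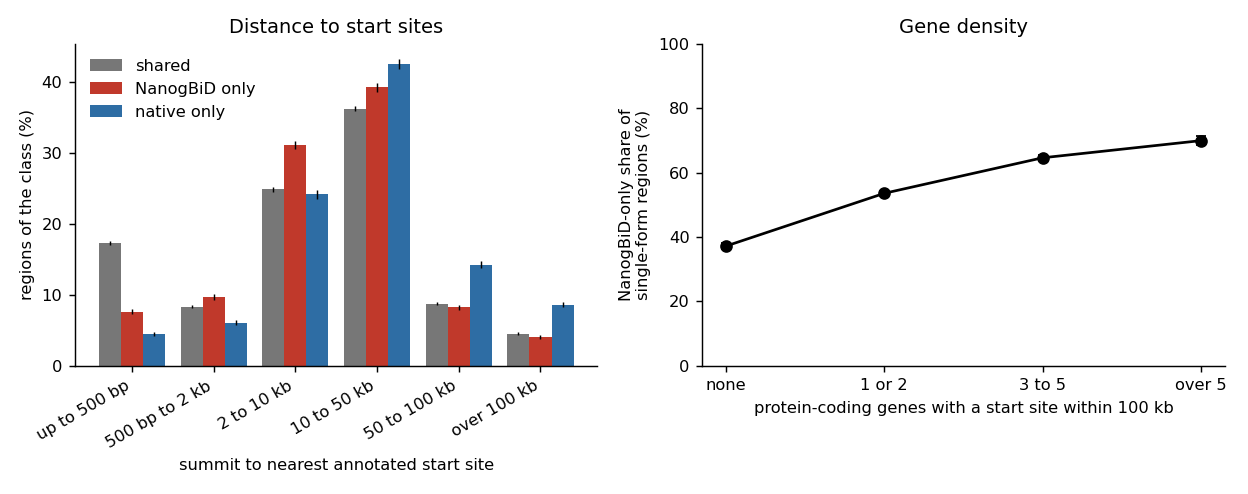
Left, share of regions of each class (%) by distance from summit to the nearest annotated start site; right, NanogBiD-only share (%) of all single-form regions by number of protein-coding genes with a start site within 100 kb; bars are exact 95% intervals, 1 library per form. Shared regions have the highest share within 500 bp (17.3%), native-only regions the highest over 100 kb (8.62%), and the right panel goes from 37.2% to 69.95%.

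The other factors served as a comparison, with the regions of each classed in the same way. For Oct4 and Sox2 the BiD-only regions also had a higher promoter share than the native-only regions, by 7.33 and 10.36 points. For Nr5a2 the difference was -6.89 points, in the opposite direction. The lists differ in length, with 54096 BiD-only against 14720 native-only regions for Oct4 and 10653 against 42471 for Nr5a2.

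The NANOG consensus was read next at all summits. A motif's enrichment is the share of summits with a match within 50 bp, over the average share of 2 equally long windows whose centres lie 500 bp away on each side. GCCATTA was present at 769 of 22677 NanogBiD-only summits, 3.39% (3.16 to 3.63), and at 225 of 20029 native-only summits, 1.12% (0.982 to 1.28). The windows at the sides held it in 0.836% and 0.906%, so the enrichment was 4.06 and 1.24. In shared regions the enrichment lay between them, 2.79 at NanogBiD summits and 2.23 at native summits. The log2 ratio of the enrichment in NanogBiD-only over native-only regions was 1.71 (1.41 to 2.01, from the counts). With the core CCATTA, which every match of the consensus contains, it was 1.28 (1.13 to 1.42). The match was most frequent in the strongest NanogBiD-only regions, with 62 of the 884 regions above the 75th percentile (7.01%, 5.42 to 8.90) against 10 of 654 native-only ones (1.53%, 0.736 to 2.79).

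AP-1 had the opposite order. TGANTCA was present at 7.49% (7.15 to 7.84) of NanogBiD-only summits and at 15.4% (14.9 to 15.9) of native-only summits, against 2.67% and 3.31% in the windows at the sides, so the enrichment was 2.80 and 4.65. It was present at 13.1% of the NanogBiD summits and 13.3% of the native summits of shared regions. The log2 ratio of NanogBiD only over native only was -0.73 (-0.87 to -0.59). Above the 75th score percentile it was -0.56 (-1.31 to 0.18), an interval that holds 0. Native-only regions were near the shared ones in this measure, at a log2 ratio of 0.06 (-0.05 to 0.17) over shared native summits, and NanogBiD-only regions were at -0.63 (-0.75 to -0.51) over shared NanogBiD summits. TEAD (GGAATG) went the same way as AP-1, with 9.91% of NanogBiD-only and 14.9% of native-only summits, 5.03% and 5.46% at the sides, and a log2 ratio of -0.47 (-0.58 to -0.35) between the single-form classes. RUNX (AACCACA) was at 8.11% and 6.81% of summits and at 2.26% and 2.12% at the sides, and the log2 ratio was 0.17, with a lower bound at about 0. The intervals of the octamer bound by Oct4 (ATGCAAAT), of SOX (CATTGTT), NR5A (CAAGGTCA), KLF (GGGTGTGG) and CTCF (searched by its name alone, as a degenerate consensus) all held 0, which does not show that these motifs were equal.

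**Figure D3:**
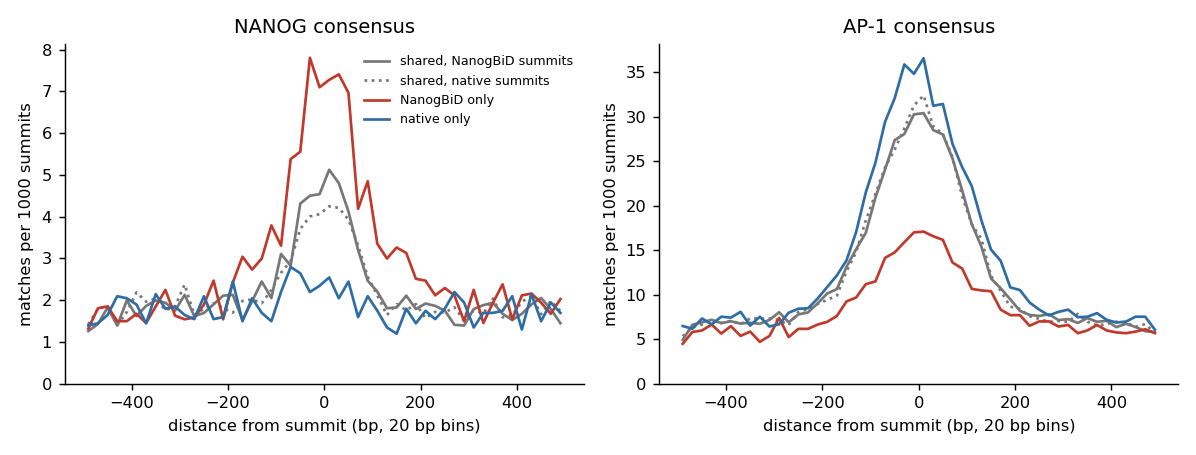
Matches per 1000 summits in 20 bp bins by distance from the summit (bp), for the NANOG consensus (left) and the AP-1 consensus (right), in NanogBiD-only (red), native-only (blue) and shared regions (grey, solid at NanogBiD summits and dotted at native summits). NANOG matches are most frequent at NanogBiD-only summits (3.39% within 50 bp against 1.12% at native-only summits), and AP-1 matches at native-only summits (15.4% against 7.49%). AP-1 matches rise towards the summit in every class, and NANOG matches do so in shared regions too.

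Both orders were present in and away from promoters, and in gene-poor and gene-dense stretches. Away from promoters the NANOG log2 ratio was 1.66 (1.34 to 1.97) and the AP-1 log2 ratio was -0.77 (-0.92 to -0.62). In promoters they were 2.52 (1.42 to 3.63), from only 11 native-only matches, and -0.48 (-0.92 to -0.04). Promoters differed in one respect, as the AP-1 enrichment of NanogBiD-only promoters was at a log2 ratio of 0.16 (-0.16 to 0.48) over shared promoters, and that of native-only promoters at 0.72 (0.36 to 1.08). With no gene within 100 kb they were 1.89 (1.35 to 2.44) and -0.66 (-0.95 to -0.38). With over 5 genes they were 2.55 (1.13 to 3.98), from 6 native-only matches, and -0.88 (-1.41 to -0.34).

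Shared regions were then ordered by rank. The order was the difference between a region's score percentiles in the lists. The classes are a threshold on the same score, so what follows continues that measure within shared regions and is no separate support for the differences between classes. The score percentile was over 20 points higher in NanogBiD at 9560 shared regions (18.1% of shared regions) and over 20 points higher in native Nanog at 8782 (16.7%). Across the shared regions, Spearman's rho was 0.642 for scores and 0.650 for heights, a description over 52683 regions called in both libraries by the same caller. In the 51593 shared regions with 1 peak of each form, the summits were a median of 48 bp apart, and 73.5% of the pairs lay within 100 bp.

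NANOG matches went up and AP-1 matches went down along this order. Where native Nanog was over 40 points higher (2702 regions), 1.30% (0.904 to 1.80) of the NanogBiD summits held the NANOG consensus. Where the forms were within 20 points (34341 regions) the share was 2.10% (1.95 to 2.25), and where NanogBiD was over 40 points higher (3120 regions) it was 4.17% (3.49 to 4.93). The native summits of the same regions gave 1.07%, 1.79% and 3.27%, in the same order. Most summits of the forms lay close together, so this reads largely the same sequence and is no separate check. AP-1 was present at 16.8% (15.4 to 18.2), 13.0% (12.6 to 13.3) and 8.30% (7.36 to 9.32) of the NanogBiD summits in the same groups. RUNX had no such slope among the first groups, with 7.85% and 7.69%, and stood at 10.7% (9.67 to 11.9) where NanogBiD was over 40 points higher. Promoters did not follow this order, with 10.95%, 29.2% and 18.4%.

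**Figure D4:**
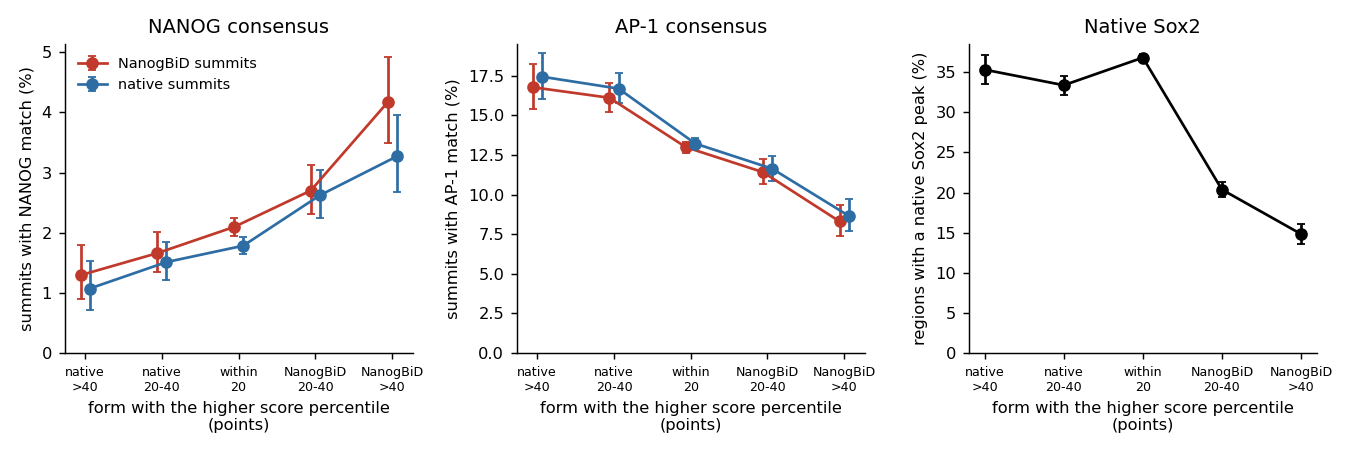
Shared regions in 5 groups by the difference in score percentile, from native Nanog over 40 points higher (left) to NanogBiD over 40 points higher (right); the panels give the share of NanogBiD (red) and native (blue) summits with a NANOG match, the same for AP-1, and the share of regions with a native Sox2 peak (%); bars are exact 95% intervals. At NanogBiD summits NANOG goes from 1.30% to 4.17% and AP-1 from 16.8% to 8.30%, and native Sox2 peaks are at 35.3%, 33.4% and 36.8% in the first groups and at 20.4% and 14.8% in the last.

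The 10 shared regions with the greatest shift towards NanogBiD included 3 promoter regions, of Tec, Sowahd and 1700109H08Rik, against 25.6% promoters among all shared regions, and the 10 towards native Nanog included 0. Near Fgd4, a region in an intron had a NanogBiD score of 588.48 (34 tags) and a native score of 50.65 (10 tags). Near Mrps5, whose sequence is given above, the scores were 399.62 (46 tags) and 50.46 (9 tags). In the other direction, a region 403 kb from Nr2f1 had a NanogBiD score of 53.86 (9 tags) and a native score of 552.37 (38 tags). A region 12.5 kb from Ccn3, which codes a secreted matrix protein, had 54.37 (10 tags) and 516.31 (31 tags), and it also held a peak in all 6 libraries of the other factors. The region in an intron of Slc16a7, a monocarboxylate transporter, had 51.03 (13 tags) and 353.34 (37 tags).

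Presence in the libraries of the other factors was compared across the classes. A peak of at least 1 other library overlapped 78.0% (77.6 to 78.3) of shared regions, 50.4% (49.7 to 51.04) of NanogBiD-only regions and 59.3% (58.6 to 59.98) of native-only regions. NanogBiD-only regions were thus the class most often without any other factor, at 11250 of 22677 (49.6%). All 6 libraries had a peak at 8.17% of shared regions, at 0.168% of NanogBiD-only regions and at 0.514% of native-only regions.

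Native Sox2 showed the widest gap between the single-form classes. It had a peak at 22.3% (21.7 to 22.9) of native-only regions and at 8.75% (8.39 to 9.13) of NanogBiD-only regions, a difference of -13.5 points for NanogBiD only minus native only. For native Oct4 the shares were 14.8% and 7.98%. Sox2BiD was at 33.0% of native-only and 24.6% of NanogBiD-only regions. Oct4BiD was at 18.6% and 20.3%, slightly more often at the NanogBiD-only regions. For Nr5a2 the shares were 19.4% and 21.3%, and for Nr5a2BiD 18.99% and 15.2%. Native Nr5a2 and Oct4BiD were the only libraries of the 6 with a higher share in the NanogBiD-only class.

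**Figure D5:**
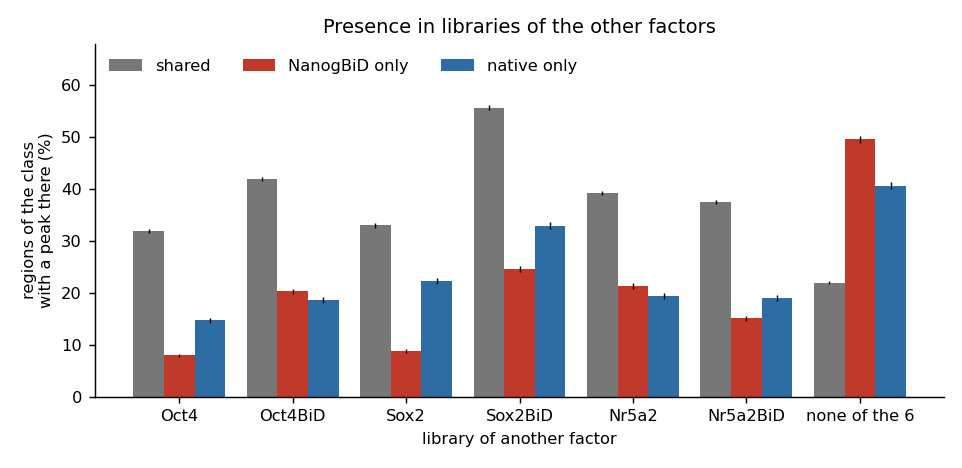
Share of shared (grey), NanogBiD-only (red) and native-only (blue) regions (%) that overlapped a peak of each library of the other factors, and of none of the 6; bars are exact 95% intervals. Shared regions are highest in each library, and native Sox2 has the widest gap between the single-form classes, 22.3% against 8.75%.

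The gap for native Sox2 grew with strength. In native-only regions the share with a native Sox2 peak was 18.1% (17.3 to 18.9) in the lowest of the 4 score bins and 39.3% (35.5 to 43.2) in the highest. In NanogBiD-only regions it was 8.34% (7.83 to 8.87) and 9.95% (8.06 to 12.1). Native Oct4 went from 12.2% to 29.7% in native-only regions and from 7.50% to 8.60% in NanogBiD-only regions. In shared regions native Sox2 was present at 35.3% (33.5 to 37.1) where native Nanog was over 40 points higher in rank, at 36.8% (36.3 to 37.3) within 20 points and at 14.8% (13.6 to 16.1) where NanogBiD was over 40 points higher.

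Motifs were then read with and without other factors at the region. Among single-form regions with no other library, the NANOG consensus was at 4.08% (3.72 to 4.46) of NanogBiD-only summits and 1.398% (1.15 to 1.68) of native-only summits. With at least 1 other library the shares were 2.71% (2.42 to 3.03) and 0.935% (0.769 to 1.12). The log2 ratio of enrichment was 1.58 (1.15 to 2.0) without and 1.77 (1.34 to 2.20) with another library. For AP-1 it was -0.87 (-1.08 to -0.65) and -0.63 (-0.82 to -0.44). At regions with a native Sox2 peak the AP-1 ratio was -0.18 (-0.57 to 0.20), an interval that holds 0, and the NANOG ratio was 1.95 (1.06 to 2.85).

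Genes were described by the single-form regions with a summit within 100 kb of one of their start sites. A gene was counted as having more of one class when it had at least 3 more regions of it and at least 2 times as many. Of 21938 protein-coding genes, 5790 (26.4%) had more NanogBiD-only regions and 994 (4.53%) more native-only regions. A region in a gene-dense stretch is counted for several genes, which widens the imbalance. With each region given to its nearest start site alone, the numbers were 1056 and 852. The shares of the gene lists below are therefore read against 26.4% and 4.53%, and neighbouring genes share regions.

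Genes of pluripotency were on the NanogBiD side in numbers near the background. Of 40 genes, 13 (32.5%) had more NanogBiD-only regions and 0 more native-only regions, with a median difference of 1 region, the same as over all genes. Esrrb, an orphan nuclear receptor of the pluripotency network, had 11 NanogBiD-only, 0 native-only and 3 shared regions. Of its 11 NanogBiD-only regions, 9 overlapped no other library, against 49.6% over the whole class. Dnmt3b, a DNA methyltransferase, had 6, 0 and 1. Jarid2, a partner of Polycomb complex PRC2, had 11, 5 and 10. Nodal, a TGF-beta family ligand, had 5, 0 and 6, and Lefty2, its antagonist, had 8, 3 and 9. In 8 of the 40 genes native-only regions outnumbered NanogBiD-only ones, by 2 at most and too few for a call, as in Klf5 and Zfp42 (0 NanogBiD only and 2 native only each), Fbxo15 (1 and 3) and L1td1 (2 and 4).

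The 9 genes that the study names as targets or helpers of NanogBiD had 27 NanogBiD-only and 6 native-only regions, which is 81.8% NanogBiD only against 64.1% over all genes, and Esrrb alone gave 11 of the 27. Of them, 3 had more NanogBiD-only regions, namely Esrrb, Sall4 (3 NanogBiD only, 0 native only, 2 shared) and Sox15 (6, 1 and 7). The study chose these genes from its own results, so they are no independent evidence of direction. Sox2 had 1 NanogBiD-only and 2 native-only regions, and Mir302a and Olig3 had 0 of either.

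The NanogBiD-only regions within 100 kb of the pluripotency genes numbered 101 when each was counted once, with a median score percentile of 24.7, and 50 of them overlapped no other library. These values are near those of the whole class, with a median percentile of 25.8 and 49.6% in no other library. The NANOG consensus was at the summit of 1 of the 101, the region 7.396 kb from Prdm14, a regulator of naive pluripotency and germ cells. That region had a score of 96.21, a height of 15 tags and no peak in any other library. Over the whole NanogBiD-only class the consensus was at 3.39% of summits. The core was at 4 of the 101, against 10.8% over the class. Of the 44 native-only regions of these genes, 0 held the consensus and 2 the core, against 1.12% and 4.93% over the native-only class. These counts are small.

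Fibroblast and mesenchymal genes had many shared regions and an even split of the rest. The 36 genes had 394 shared, 108 NanogBiD-only and 103 native-only regions, summed over genes. Over all protein-coding genes the mean was 6.11 shared regions per gene. Many shared regions were not particular to this list, as the 23 AP-1, TEAD and RUNX genes had 248. More NanogBiD-only regions were counted for 5 genes (13.9%, below 26.4%) and more native-only regions for 5 (13.9%, above 4.53%). These counts of genes are small, genes that share regions are not separate cases, and the difference from the background was not tested. The median difference was 0. Lox, which crosslinks collagen and elastin, had 2 NanogBiD-only, 7 native-only and 13 shared regions. Lum and Dcn, small proteoglycans of the matrix, had 1, 6 and 11 and 1, 4 and 13. Cdh2, the mesenchymal cadherin, had 2, 6 and 17, and Pdgfrb, a growth factor receptor, 2, 5 and 7. On the other side were Twist2 with 4 NanogBiD-only, 0 native-only and 8 shared regions, and Prrx1, Col5a1, Fbn1 and Tagln, each with 3 more NanogBiD-only than native-only regions.

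Epithelial genes had more NanogBiD-only regions in 7 of 20 (35.0%) and more native-only regions in 1, against 26.4% and 4.53% over all genes. NanogBiD-only regions were 69.1% of the single-form regions of this list and 64.1% over all genes. The list is small, and no difference from the background was tested. Pkp3, a desmosome plaque protein, had 5 NanogBiD-only, 0 native-only and 8 shared regions, and Esrp1, an epithelial splicing regulator, 4, 0 and 4. Krt19 had 1, 4 and 0. Cdh1, the epithelial cadherin, had 3, 2 and 11 and was not called.

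Genes of the factors whose motifs were read above included several with large differences. In the list of AP-1, TEAD and RUNX genes, 10 of 23 (43.5%) had more NanogBiD-only regions and 2 more native-only regions, against 26.4% and 4.53% over all genes. NanogBiD-only regions were 68.3% of the single-form regions of this list and 64.1% over all genes. The list is small, and no difference from the background was tested. Tead2 had 7 NanogBiD-only, 0 native-only and 8 shared regions. Runx1 had 8, 2 and 20, Cbfb, the partner of RUNX proteins, 6, 0 and 8, and Junb 6, 1 and 10. Fos with 3, 6 and 10 and Fosl1 with 0, 4 and 10 were the native side. Of the SWI/SNF subunits, 9 of 24 (37.5%) had more NanogBiD-only regions and 0 more native-only regions. Smarcd1 had 10, 3 and 7, and Smarca4, the gene of BRG1, 6, 1 and 6.

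Regulators of other lineages gave small counts, from which no difference from the background is read. In the list of trophoblast, endoderm and mesoderm regulators, 3 of 19 (15.8%) had more NanogBiD-only regions, among them Mesp1 (5, 0 and 6) and Eomes (5, 1 and 3), and 0 had more native-only regions. Of 18 neural regulators, 3 were on the NanogBiD side, with Nes at 7, 0 and 12, Pax6 at 6, 0 and 1 and Neurog1 at 5, 0 and 5, and 2 on the native side, among them Sox11 at 0, 5 and 7.

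Over all protein-coding genes, the largest differences were, except for Esrrb, at genes outside these lists. A long gene with start sites far apart is read over more sequence, and the differences were not scaled to this. Rbm20, a splicing factor of muscle genes, had 15 NanogBiD-only, 1 native-only and 13 shared regions. Next came Smyd3 (18, 5 and 33), Rnf220 (16, 3 and 12), Sox5 (14, 2 and 17) and Itga9 (13, 1 and 16), and Esrrb was also among the first 10. On the native side, Dlgap2, a postsynaptic scaffold gene, had 3 NanogBiD-only, 18 native-only and 8 shared regions. Colec10 had 0, 12 and 4, and Cntnap2, a neuronal adhesion gene, 1, 12 and 3. Nt5c1b and Rdh14 lie beside each other and had 12 and 11 native-only regions in windows that overlap almost wholly.

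The strongest single-form regions were then read one by one. Of the 10 highest-scoring NanogBiD-only regions, 8 overlapped no other library, and of the 10 native-only ones, 4. Over all regions above the 75th score percentile the shares were 49.9% of 884 and 28.1% of 654. The first NanogBiD-only region (chromosome 13, 28141451 to 28142847, score 794.66, 49 tags) had its summit 284 bp from a start site of Prl5a1, a gene of the placental prolactin family. The second (chromosome 4, 110124972 to 110126125, score 789.95, 57 tags) was intergenic, 97.6 kb from Elavl4, an RNA-binding protein of neurons. The first native-only region (chromosome 5, 39491198 to 39492541, score 548.32, 31 tags) was in an annotated intron, 153 kb from the nearest start site of a protein-coding gene, Hs3st1. The second (chromosome 11, 92539196 to 92540295, score 514.41, 30 tags) was intergenic, 558 kb from Car10. Among the 10, the gap to the nearest peak of the other form was from 7152 to 27046 bp for NanogBiD only and from 1003 to 457021 bp for native only.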

How the data were processed

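CUT&Tag peak and summit lists of NanogBiD and native Nanog (1 library each) were analysed, with the lists of the other 6 libraries for presence only. Per the submitters' notes and the study's methods, the authors used Trim Galore 0.6.4, Bowtie2 2.4.5 (mm10), SAMtools 1.16.1 and MACS 1.4.2, removed repetitive, mitochondrial and poorly mapped reads, and merged replicates before calling. The study's reporting summary says that CUT&Tag was done once, so whether a list pools replicates is not settled. The deposited score is the authors' -10 log10 p of each peak, with a lowest value of 50 (p of 1e-05). The deposited height is the authors' signal at the summit in whole tags, not scaled to depth. The lists hold no read totals. The study's reporting summary lists them, with more read pairs for NanogBiD, and nothing was scaled to them. A deeper library can give more and higher peaks. For Oct4, Sox2 and Nr5a2, the form with more read pairs there had the shorter list, and the part of depth was not tested.

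Members and gene lists were chosen with earlier results of these data known. Peaks were merged at 1 bp of overlap on chromosomes 1 to 19, X and Y, which left out 9 NanogBiD and 8 native peaks. Score percentiles were ranks within each list, and the higher-scoring peak stood for a region with several. In shared regions, positions were read at the NanogBiD summit. Start sites and features came from GENCODE M21 (all transcripts; protein-coding genes and listed genes for gene counts), and sequence from NCBI RefSeq's GRCm38.p6 genome. Motifs were searched on both strands within 50 bp of the summit. Intervals are exact (Clopper-Pearson) for shares and from the counts, on the log scale, for ratios of enrichment. Named were the list genes with the largest differences, the 10 genes and 10 regions at either end, and genes marked as chosen later. With 1 library per group, no test was possible. Python 3.11.15, NumPy 2.4.6, pandas 2.3.3, SciPy 1.17.1, pysam 0.24.0 and matplotlib 3.10.9 were used, and the code recovered known classes, gene counts and motifs on simulated data. Alternatives for overlap, thresholds, promoter distance, motif window and gene assignment were run.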

Additional observations from a re-analysis of the deposited data

Results flagged for a closer look

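The contrast between the fused and the native form went the other way in Nr5a2. The promoter share of BiD-only minus native-only regions was -6.89 points for Nr5a2 and 6.81 points for Nanog. The mean number of protein-coding genes within 100 kb differed by -0.88 for Nr5a2 and by 0.94 for Nanog, in the same subtraction. With 1 library for each factor and form, the difference between the factors was not tested, and form, list length and depth cannot be told apart.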

How the results depend on the processing

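No paired analysis was possible because each form has 1 library and no result comes from a test. Of 82 values under 18 alternative settings, 0 changed direction, 44 stayed within the interval or within 1.5 times the count, and 38 moved. Class counts, gene counts and list shares cannot change direction, so the 0 speaks only for the promoter, motif and presence differences. With peaks within 1000 bp merged, 73.3% of the NanogBiD and 75.2% of the native list were shared. At a score of at least 100 the shares were 68.1% and 74.2%, with 33251 shared and 11629 native-only regions, a promoter difference of 7.78 points, a native Sox2 difference of -16.3 points and 408 genes with more native-only regions. With the 50000 highest-scoring peaks of each list, the shares were 71.2% and 71.4%. NanogBiD-only regions then numbered 14400 and native-only regions 14289. The Sox2 difference was -15.8 points, and 2768 genes had more NanogBiD-only regions. A height of at least 20 tags, not scaled to depth and with regions classed anew, gave shares of 56.8% and 79.1%, 21801 shared and 5816 native-only regions, a promoter difference of 14.1 points, an AP-1 log2 ratio of -0.49, differences of -7.52 points for any other library and -18.5 for Sox2, and 92 genes with more native-only regions. The promoter difference was 3.20 points at 500 bp, 10.2 at 5000 bp and, chosen after seeing the data, 9.43 with no peak of the other form within 10000 bp. The NANOG log2 ratio was 1.39 in a window of 100 bp and 1.28 with CCATTA. In score bins 1, 3 and 4 of 4, the difference for any other library was -6.54, -14.2 and -21.8 points, and for Sox2 -9.74, -21.6 and -29.3. With the summit inside the other library's peak, also chosen after seeing the data, the difference for any other library was -12.3 points. A gene window of 50000 bp gave 2773 and 525 genes, and the nearest start site alone 1056 with more NanogBiD-only regions. Beyond the settings' own construction, the cause was not tested. Heights and list lengths were not scaled to depth, which limits what they can show.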
